A study of Homo sapiens with 26 samples.

Results

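The response to loss of POU2F3 was compared between 2 small cell lung cancer lines harvested 4 days after guide infection, NCI-H211 and NCI-H1048, and 2 harvested 5 days after it, COR-L311 and NCI-H526. For each gene and line, the response was the difference of log2(FPKM + 1) between cells with guides against POU2F3 (sgPOU2F3) and cells with a control guide (sgNeg). FPKM scales a gene's fragments by transcript length and by the depth of the library, and the difference of the logs is called the ratio below. Of 19128 genes in all 4 knockout tables, 13710 (71.7%) had an FPKM of 1 or more in at least 2 of 8 columns and were compared. A gene counted as non-overlapping where both ratios of one pair of lines lay above both of the other. The labels give each line a single day, so day and line cannot be told apart in any value below.

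All 4 lines are established human small cell lung cancer lines, and polyadenylated RNA of each was sequenced after lentiviral delivery of guides. A line had 2 libraries with guides against POU2F3 (sgPOU2F3e10.1 and sgPOU2F3e10.2) and 1 with sgNeg, which makes 12 of the 26 samples of the series. The deposited tables hold 1 sgPOU2F3 column a line, whose name has no guide number. It was taken to hold both guides, how they were combined is not given in the sources used here, and a value of a single line carries no error. The unit of replication is the line (n = 2 lines a day). Any p-value below therefore measures the spread between lines, with a variance that limma draws partly from other genes. Untreated parental libraries of the same 4 lines, from a table normalized separately, were used for starting levels. NCI-H1048 was grown in HITES, a defined medium, and the others in RPMI with serum or in HITES, without the labels saying which. Selection or cloning after infection is not given in the sources used here. In bulk RNA, fewer cells of a type and less RNA per cell cannot be told apart.

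POU2F3 is a POU-domain transcription factor that binds octamer sequences and is required for tuft cells, the chemosensory cells of airway and gut epithelium. Small cell lung cancers that express it form a subtype with tuft cell genes and low levels of the neuroendocrine programme that other small cell lung cancers show. INSM1 and NEUROD1 drive that neuroendocrine programme, FOXI1 is the regulator of ionocytes, HES1 is a repressor induced by Notch, CDKN1C (p57) inhibits cyclin-dependent kinases, and KRT8 is the keratin of simple epithelium.

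POU2F3, the targeted gene, went from 307 to 21.3 FPKM (NCI-H211) and 198 to 60.8 FPKM (NCI-H1048), which left 6.95% and 30.7% of the control level. On day 5 it went from 272 to 218 FPKM (COR-L311) and 501 to 204 FPKM (NCI-H526), which left 80.4% and 40.7%. Every sgPOU2F3 column was below its sgNeg column, as its label has it, but the POU2F3 RNA that remained was itself lower in both day 4 lines than in either day 5 line. POU2F3 log2 ratios were -3.79 and -1.69 on day 4 and -0.31 and -1.29 on day 5. The day, the line and the POU2F3 RNA left cannot be told apart in what follows. An edited transcript can still be sequenced, so RNA left is not protein left.

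The ratios spread most in NCI-H211, with a standard deviation over genes of 0.71, followed by COR-L311 (0.526), NCI-H526 (0.347) and NCI-H1048 (0.339). At least 2-fold higher on this scale were 744 genes in NCI-H211 (577 lower), 459 in COR-L311 (254 lower), 229 in NCI-H526 (61 lower) and 137 in NCI-H1048 (122 lower). The files give no read counts. The smallest steps between FPKM values put the sgNeg columns at about 9450000 to 14900000 fragments and the combined sgPOU2F3 columns at about 18000000 to 29100000. Fewer genes were listed at 0 in the sgPOU2F3 columns (13.8% to 15.9%) than in the sgNeg columns (18.3% to 21.5%), so a gene near 0 FPKM can gain a small positive ratio in every line.

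Across all genes, 2656 (19.4%) had non-overlapping ratios with day 5 above and 2594 (18.9%) with day 4 above, and the median gap between the pairs was 0.139. With 2 lines a day, many genes would fail to overlap through the order of their 4 ratios alone, with no difference between the pairs. Non-overlap of a gene, here or in the lists below, is therefore not evidence of a difference between the days. A gap of 1 or more, a distance of at least 2-fold between the nearest lines of the pairs, was rarer, with 60 genes (0.438%) where day 5 was above and 45 (0.328%) where day 4 was above. That balance turned to 18 and 22 with a pseudocount of 5 and to 48 and 58 with quantile normalization. In limma's moderated test with Benjamini-Hochberg adjustment, 0 of 13710 genes (0%) passed an adjusted p of 0.05. At an unadjusted p under 0.05 there were 715 genes (5.22%), about the share that this threshold admits with no difference between the pairs. With the adjustment, limma without the variance trend also called 0. No gene below is therefore called changed between the days, and non-overlap is given as a description. Without NCI-H1048, with NCI-H211 alone on day 4 and assumed to vary like the other lines, 48 genes passed.

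The same counts were made for sgNeg against the parental cells of the same lines, where no guide against POU2F3 is involved and which shares the sgNeg values. There, 1934 of 13709 genes (14.1%) did not overlap with day 5 above and 2751 (20.1%) with day 4 above. Both directions together made up 34.2% of genes there, against 38.3% in the knockout ratio, so non-overlap was nearly as common without a guide against POU2F3. A gap of 1 or more was found in 41 genes, 9 with day 5 above and 32 with day 4 above, against 105 in the knockout ratio. The parental and knockout tables were normalized separately, so these counts are a description with no test.

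**Figure D1:**
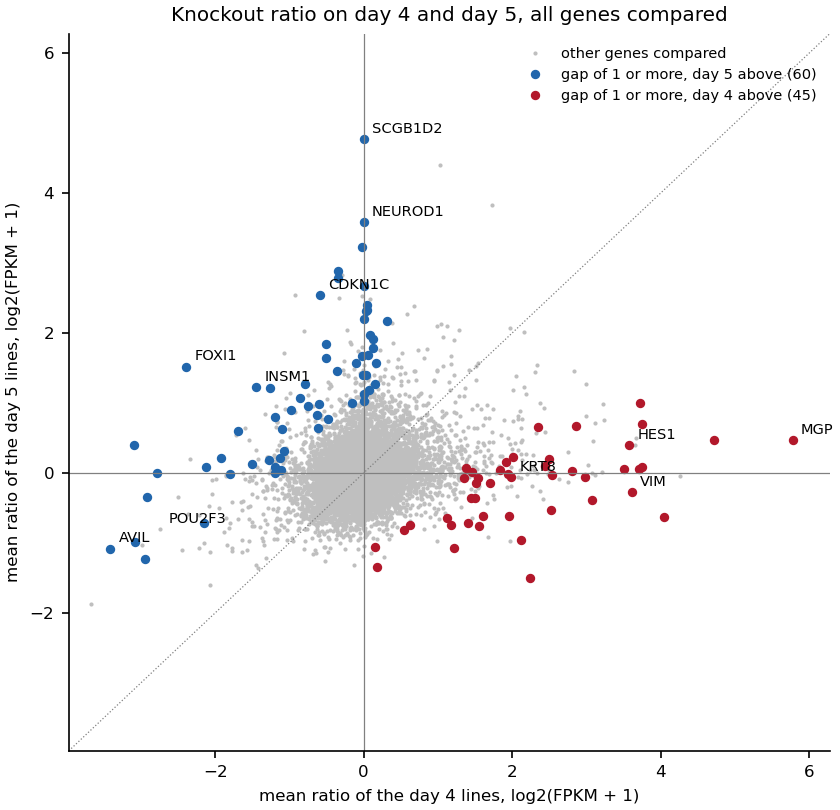
Mean ratio of the 2 day 4 lines (x axis) against that of the 2 day 5 lines (y axis), both as differences of log2(FPKM + 1), for 13710 genes. Coloured points are the 60 and 45 genes with a gap of 1 or more, many of which lie near one of the axes, and the dotted diagonal marks equal means.

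The 105 wide-gap genes fell into a few shapes. Among the 60 with day 5 above, 22 were within 0.5 of 0 in both day 4 lines and at 0.5 or above in both day 5 lines. A further 11 were at -0.5 or below on day 4 and within 0.5 of 0 on day 5, and 6 were at -0.5 or below on day 4 and at 0.5 or above on day 5. Of the 45 with day 4 above, 21 were at 0.5 or above in both day 4 lines and within 0.5 of 0 in both day 5 lines, and 3 pointed in opposite directions at that size. Opposite signs at any size were found in 1653 of all genes (12.1%). A threshold splits neighbours of nearly equal gap: SHISA8 was just inside with a gap of 1 and FGFR1 just outside with 0.99 where day 5 was above, and PITRM1 (-1.06) and GCNT1 (-0.998) were the neighbours where day 4 was above.

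INSM1, a zinc finger factor of neuroendocrine cells, went from 5.93 to 1.24 FPKM (NCI-H211) and 4.9 to 1.46 FPKM (NCI-H1048). On day 5 it went from 50.7 to 165 FPKM (COR-L311) and 80.7 to 138 FPKM (NCI-H526). The groups did not overlap: both day 4 lines ended lower than they began and both day 5 lines higher, from sgNeg levels that were already several times higher in the day 5 lines. In parental cells INSM1 stood at 4.55 and 1.77 FPKM in the day 4 lines and at 79 and 98.4 FPKM in the day 5 lines. Its ratios were -1.63 and -1.26 on day 4 and 1.68 and 0.77 on day 5, a difference of 2.67 ± 0.36 (SE, n = 2 lines a day). The SE, here and below, is limma's moderated one, whose variance is drawn partly from other genes. It can be smaller than the spread of a gene's own 4 ratios, which are printed with it.

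FOXI1, the ionocyte regulator, went from 38.8 to 5.38 FPKM (NCI-H211) and 27.6 to 5.53 FPKM (NCI-H1048). In the day 5 lines it went from 0.314 to 1.71 FPKM (COR-L311) and 0.662 to 5.6 FPKM (NCI-H526). The lines that began high ended lower and those that began near 0 ended higher, so that the sgPOU2F3 levels of NCI-H211, NCI-H1048 and NCI-H526 were nearly equal. Parental FOXI1 was 52.3 and 26.9 FPKM in the day 4 lines against 1.07 and 0.0989 FPKM in the day 5 lines. The ratios were -2.64 and -2.13 and, on day 5, 1.04 and 1.99, with a difference of 3.90 ± 0.41 (SE).

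CDKN1C, which restrains the cell cycle and is imprinted, went from 7.36 to 1.41 FPKM (NCI-H211) and 24.9 to 38.8 FPKM (NCI-H1048). It went from 46 to 239 FPKM (COR-L311) and 95.1 to 638 FPKM (NCI-H526) on day 5. The day 4 lines differed in sign, with ratios of -1.79 and 0.62, while both day 5 lines gave ratios over 2 (2.35 and 2.73). The difference was 3.13 ± 0.76 (SE), and 1.93 without NCI-H211 and 4.34 without NCI-H1048.

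HES1, a target of the Notch pathway that represses neurogenic factors, went from 1.23 to 37.7 FPKM (NCI-H211) and 5.26 to 49.7 FPKM (NCI-H1048). In the day 5 lines it went from 13.3 to 10.6 FPKM (COR-L311) and 2.72 to 6.95 FPKM (NCI-H526). Both day 4 lines ended above both day 5 lines although NCI-H211 and NCI-H1048 began below COR-L311. The ratios of 4.12 and 3.02 on day 4 did not overlap those of -0.30 and 1.10 on day 5, and NCI-H526 shared the day 4 direction. The difference was -3.17 ± 0.59 (SE).

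KRT8, which pairs with KRT18 in simple epithelium, went from 300 to 1380 FPKM (NCI-H211) and 53 to 184 FPKM (NCI-H1048). On day 5 it went from 565 to 460 FPKM (COR-L311) and 169 to 191 FPKM (NCI-H526). Both day 4 lines ended above their controls and both day 5 lines close to theirs, with ratios of 2.19 and 1.78 against -0.30 and 0.17 and a difference of -2.05 ± 0.28 (SE). Its partner KRT18 had ratios of 2.02 and 0.59 on day 4 and -0.74 and -0.22 on day 5. The limma adjusted p of the 5 markers lay between 0.347 for FOXI1 and 0.817 for CDKN1C, so none passed.

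**Figure D2:**
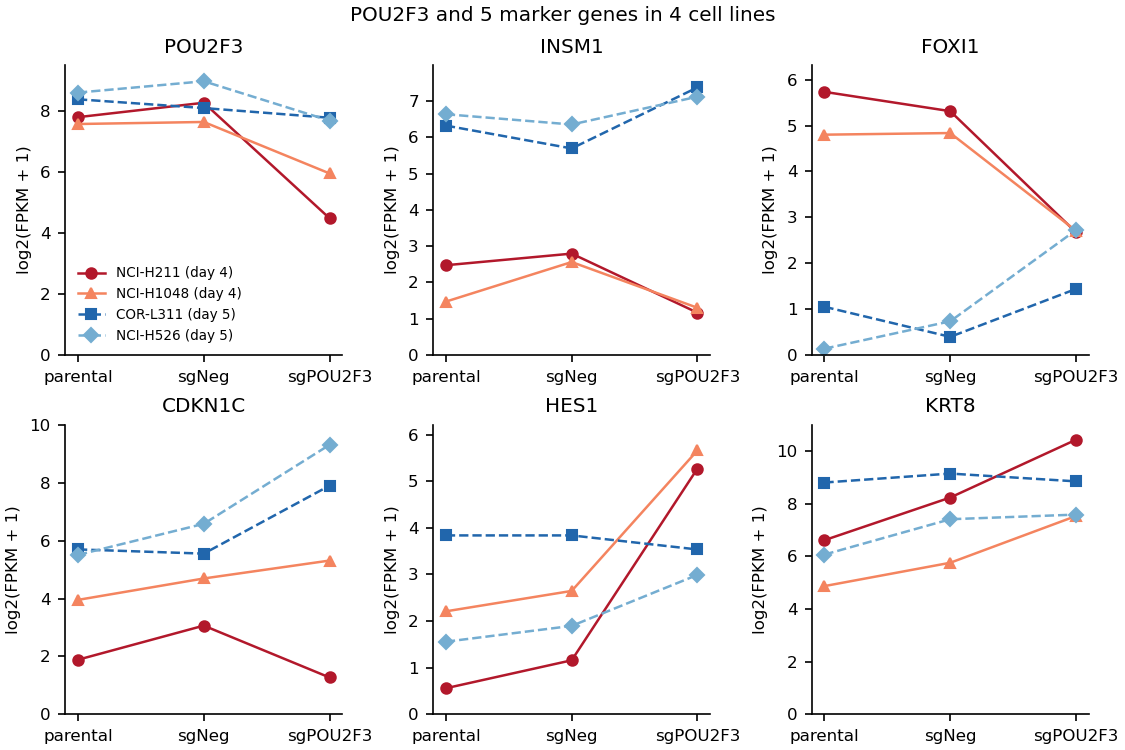
log2(FPKM + 1) of POU2F3 and of the 5 markers in the parental, sgNeg and sgPOU2F3 columns of each line, 1 point a column, with day 4 lines solid and day 5 lines dashed. INSM1 and FOXI1 run in opposite directions between sgNeg and sgPOU2F3 in the 2 pairs, and HES1 and KRT8 climb most steeply in NCI-H211 and NCI-H1048.

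Beside the markers, 7 genes pointed in opposite directions by at least 0.5 in every line. HDAC9, a class II histone deacetylase, went from 11.4 to 2.98 FPKM (NCI-H211) and 72.4 to 38.9 FPKM (NCI-H1048), and on day 5 from 5.41 to 16.8 FPKM (COR-L311) and 2.96 to 6.73 FPKM (NCI-H526). KLHL14, a Kelch family protein, had ratios of -1.004 and -1.20 on day 4 and 0.58 and 0.69 on day 5, SAMD9, an antiviral factor, had -0.71 and -0.56 and 0.94 and 0.72, and PHACTR1, a phosphatase and actin regulator, had -0.70 and -0.53 and 0.75 and 0.53. These 4 were lower on day 4 and higher on day 5. The reverse held for TPBG, an oncofetal surface glycoprotein, for SYT12, a synaptotagmin, and for HEG1, a membrane receptor. TPBG went from 8.44 to 22.5 FPKM (NCI-H211) and 31.7 to 70.5 FPKM (NCI-H1048), and on day 5 from 17.3 to 5.55 FPKM (COR-L311) and 9.14 to 5.43 FPKM (NCI-H526). SYT12 had ratios of 3.28 and 0.96 on day 4 and -1.32 and -0.58 on day 5, and HEG1 of 2.53 and 0.69 and -0.58 and -0.65.

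Because POU2F3 binds octamers, the RefSeq promoter windows (GRCh38.p14, 250 bases before to 50 after a start) were searched on both strands for ATGCAAAT. A match was found in 3 of the 41 wide-gap genes with day 5 above that had a window (7.32%), in 0 of 34 with day 4 above and in 2.07% of 11231 genes compared. The 3 genes were HDAC9, PHACTR1 and SUCNR1, the succinate receptor of tuft cells, all at lower FPKM with sgPOU2F3 than with sgNeg in both day 4 lines. They were picked from genes with day 5 above, which favours low ratios on day 4, so the shared direction is a description only. Their matches, shown as the stretches that carry the letters searched for, are capitals in 60 bases of the plus strand before a start: HDAC9 at chr7:18495668-18495727 (1 of 5 windows of the gene), PHACTR1 at chr6:12716569-12716628 (1 of 7) and SUCNR1 at chr3:151873561-151873620. 
HDAC9: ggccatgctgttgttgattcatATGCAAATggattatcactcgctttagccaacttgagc
PHACTR1: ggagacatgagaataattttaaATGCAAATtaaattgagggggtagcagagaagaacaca
SUCNR1: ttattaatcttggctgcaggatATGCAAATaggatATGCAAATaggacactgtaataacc
SUCNR1 holds 2 matches, starting 60 and 47 bases before its start, and was named after its values were seen. It went from 6.72 to 0.95 FPKM (NCI-H211) and 2.48 to 0.311 FPKM (NCI-H1048), and on day 5 from 0.672 to 3.58 FPKM (COR-L311) and 1.61 to 1.19 FPKM (NCI-H526). A match describes letters and not a bound site.

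All motif shares are of genes that had a window. A gene counted if any of its windows held a match, so genes with more windows had more chances. The core of the Notch partner RBPJ, TGGGAA, was in 41.5% of the wide-gap genes with day 5 above. It was in 38.2% of those with day 4 above and in 28.2% of all genes compared. HES1 held 2 matches before its start, and 4.58% of genes held at least that many in a window. They are the capitals in the plus strand at chr3:194135898-194136147, where they begin 84 and 70 bases before the start. 
HES1: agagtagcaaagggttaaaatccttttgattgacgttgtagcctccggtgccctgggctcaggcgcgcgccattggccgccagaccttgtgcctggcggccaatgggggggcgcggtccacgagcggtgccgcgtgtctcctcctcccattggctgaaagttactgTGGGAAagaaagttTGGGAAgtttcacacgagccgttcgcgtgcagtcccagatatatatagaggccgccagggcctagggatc
The TEAD core, CATTCC, was in 17.1% with day 5 above, in 35.3% with day 4 above and in 14.9% of all. No test was made of these shares.

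Several of the widest gaps with day 5 above belonged to genes at or near 0 in NCI-H211 and NCI-H1048. SCGB1D2, a secreted secretoglobin, was listed at 0 in all 4 day 4 columns and went from 0.352 to 41.4 FPKM (COR-L311) and 1.04 to 47.1 FPKM (NCI-H526). NEUROD1, a neurogenic bHLH factor that defines another small cell subtype, was listed at 0 in the same 4 columns and went from 0.173 to 13.8 FPKM (COR-L311) and 0.107 to 11.6 FPKM (NCI-H526). Both day 5 lines thus began near 0 for these 2 genes and ended above 10 FPKM. With no value above 0 on day 4, these genes were compared only through the day 5 lines, so no error or test of the day difference is given for them. NGB, the oxygen-binding globin of neurons, stayed under 0.1 FPKM on day 4 and went from 0.242 to 12.4 FPKM (COR-L311) and 2.29 to 25.9 FPKM (NCI-H526). PHGR1, a gut epithelial protein, was listed at 0 on day 4 and went from 8.91 to 45.6 FPKM (COR-L311) and 3.42 to 37.1 FPKM (NCI-H526), and SCGB2A1, another secretoglobin, was also listed at 0 there and went from 19.6 to 113 FPKM (COR-L311) and 20.8 to 82.2 FPKM (NCI-H526). Secretoglobins have close paralogs among which reads can be split. MFAP4, a microfibril protein of the extracellular matrix, went from 0.117 to 0.112 FPKM (NCI-H211) and 0.417 to 0.515 FPKM (NCI-H1048) and from 22.4 to 142 FPKM (COR-L311) and 0.472 to 5.7 FPKM (NCI-H526). LDB3, a Z-disc protein, went from 0.0605 to 0.247 FPKM (NCI-H211) and 0.852 to 0.679 FPKM (NCI-H1048) and from 0.424 to 7.23 FPKM (COR-L311) and 0.198 to 4.18 FPKM (NCI-H526).

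Such silence in the other pair was common among the wide gaps. Of the 60 genes with day 5 above, 20 (33.3%) were under 1 FPKM in all 4 day 4 columns, against 4.55% of all genes. Of the 45 with day 4 above, 12 (26.7%) were under 1 FPKM in all 4 day 5 columns, against 5.6% of all. The pair with the higher ratios was itself under 1 FPKM in all 4 columns for a further 7 of the 60 (11.7%) and 1 of the 45 (2.22%). Such a gene passed the filter through one pair alone, and its ratio in the other pair was bound to lie within 1 of 0. Of the 13710 genes, 12318 had an FPKM of 1 or more in at least 1 column of each pair. Among those, 2340 (19%) did not overlap with day 5 above and 2318 (18.8%) with day 4 above, and a gap of 1 or more was left in 33 and 32. Counts over these genes are therefore also given for many of the lists below, a choice made after seeing the data. Parental levels differed between the pairs as well: 22 of the 60 (36.7%) had higher levels in both day 5 parental lines and 13 (21.7%) in both day 4 lines. Of the 45, 16 (35.6%) were higher in both day 4 parental lines and 6 (13.3%) in both day 5 lines. Over all genes, 20.9% were higher in the day 5 and 19.8% in the day 4 parental lines.

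**Figure D3:**
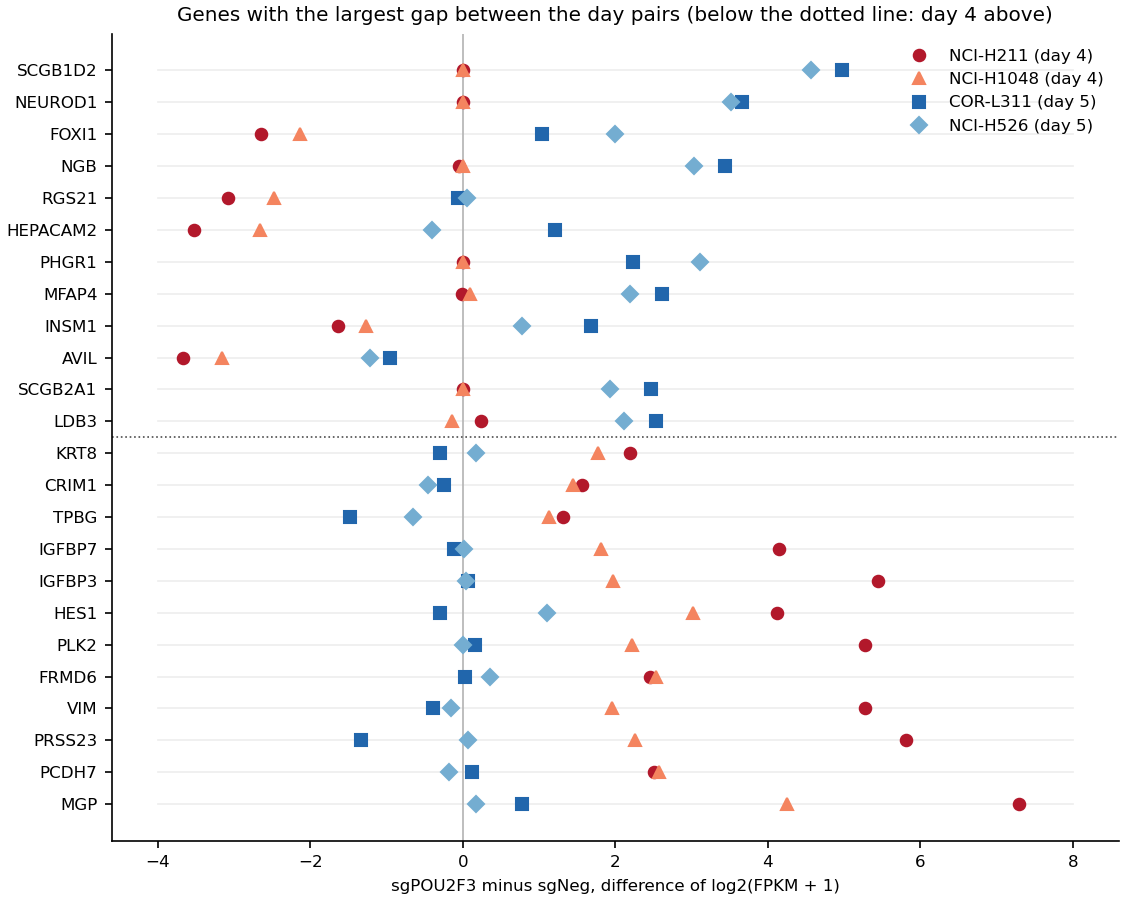
Ratio in each line, as the difference of log2(FPKM + 1), for the 12 genes with the largest gap in each direction and an FPKM of 5 or more in at least 1 column. SCGB1D2 and NEUROD1 sit at 0 in the day 4 lines and over 3 in the day 5 lines, while in the lower 12 genes NCI-H211 often lies far to the right of NCI-H1048.

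Tuft cell genes with day 5 above were mostly genes where both day 4 lines lay further below their controls than the day 5 lines did. Of 53 tuft genes compared, 22 (41.5%) had day 5 above and 3 (5.66%) day 4 above, beside 19.4% and 18.9% of all genes. Of the 51 at 1 FPKM or more in each pair, 21 and 3 did. The list holds POU2F3 itself, the targeted gene, which is among the 22. COLCA1 and COLCA2 are also among the 22, but both were above control in both day 5 lines. COLCA1 had ratios of 0.985 and 2.47 on day 4 and 3.38 and 4.27 on day 5, and COLCA2 of 0.42 and -0.95 and 0.97 and 2.21. AVIL, the actin-binding protein advillin, went from 284 to 21.5 FPKM (NCI-H211) and 55 to 5.28 FPKM (NCI-H1048), and on day 5 from 137 to 70.3 FPKM (COR-L311) and 354 to 152 FPKM (NCI-H526). All 4 columns were below control, with ratios of -3.66 and -3.16 on day 4 and -0.95 and -1.21 on day 5. RGS21, a G protein regulator of taste cells, went from 17 to 1.13 FPKM (NCI-H211) and 18.2 to 2.44 FPKM (NCI-H1048), while the sgNeg and sgPOU2F3 columns of both day 5 lines were under 0.2 FPKM. GNAT3 (gustducin, the taste G protein) had ratios of -1.97 and -1.64 on day 4 and 0.00 and -0.04 on day 5, where its sgNeg levels were 0.0828 FPKM (COR-L311) and 0.122 FPKM (NCI-H526). The parental COR-L311 library, in the separately normalized table, held 8.69 FPKM of GNAT3, above the 6.39 FPKM of parental NCI-H1048. HEPACAM2, an adhesion protein of tuft cells and ionocytes, went from 244 to 20.2 FPKM (NCI-H211) and 19.7 to 2.27 FPKM (NCI-H1048), and on day 5 from 72.6 to 169 FPKM (COR-L311) and 49.9 to 37.6 FPKM (NCI-H526). Of the 4 lines COR-L311 ended above its control for HEPACAM2 and the others below. C11orf53, which encodes a coactivator of POU2F3, had ratios of -3.36 and -2.47 on day 4 and -0.03 and -0.67 on day 5, and PLA2G4A, the phospholipase that frees arachidonic acid, had -2.71 and -2.18 and -0.99 and -1.21. POU2F3 RNA left was lower on day 4 as well, and its part in these gaps was not tested.

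Over the tuft list the median ratio was -2.04 (NCI-H211) and -0.68 (NCI-H1048), and -0.69 (COR-L311) and -0.64 (NCI-H526). NCI-H1048 was therefore close to the day 5 lines, and the list's median difference (day 5 minus day 4) of 0.57 became 0.10 without NCI-H211 and 1.40 without NCI-H1048.

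With day 4 above, the gaps were widest in MGP, PCDH7, PRSS23 and VIM. MGP, a matrix protein that inhibits calcification, went from 0 to 155 FPKM (NCI-H211) and 9.7 to 204 FPKM (NCI-H1048), and on day 5 from 0 to 0.707 FPKM (COR-L311) and 0 to 0.125 FPKM (NCI-H526). VIM, the intermediate filament vimentin, went from 1.64 to 101 FPKM (NCI-H211) and 507 to 1970 FPKM (NCI-H1048), and from 0.335 to 0.0226 FPKM (COR-L311) and 0.65 to 0.483 FPKM (NCI-H526). Both genes were near 0 in the day 5 lines before and after, and NCI-H211 held little of either in its control. PRSS23, a secreted serine protease, went from 4.77 to 324 FPKM (NCI-H211) and 14.1 to 71.2 FPKM (NCI-H1048), and on day 5 from 40.2 to 15.4 FPKM (COR-L311) and 6.06 to 6.43 FPKM (NCI-H526). IGFBP3, which binds insulin-like growth factors, had ratios of 5.44 and 1.97 on day 4 and 0.07 and 0.04 on day 5, and IGFBP7 of 4.15 and 1.82 and -0.12 and 0.01. PLK2, a stress-induced kinase, had 5.27 and 2.22 and 0.15 and 0.00. The size in NCI-H211 exceeded that in NCI-H1048 for each of these. In PCDH7, a protocadherin, the day 4 lines were alike at 2.50 and 2.58 against 0.12 and -0.18, and likewise in FRMD6, a FERM-domain protein of the Hippo pathway, at 2.45 and 2.54 against 0.03 and 0.36. CRIM1, a BMP-binding membrane protein, had 1.56 and 1.44 and -0.25 and -0.45.

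The list of YAP and TEAD targets holds genes induced by the Hippo pathway's effectors and also effectors themselves, such as YAP1, WWTR1 and TEAD1. It had 17 of 33 members (51.5%) with day 4 above, YAP1 and WWTR1 among them, and 2 (6.06%) with day 5 above. Of the 17, 8 were under 1 FPKM in all 4 day 5 columns, among them IGFBP3, and over the 23 members at 1 FPKM or more in each pair the counts were 9 (39.1%) and 1, with a median difference of -0.90. Over all members compared, the median ratio was 1.57 (NCI-H211) and 0.34 (NCI-H1048), and 0.06 (COR-L311) and 0.02 (NCI-H526), beside medians between -0.01 and 0 in the same lines over all genes. F3, tissue factor, was a member with similar ratios in both day 4 lines, 2.004 and 1.39, against -0.16 and -0.13 on day 5. Mesenchymal and TGF-beta genes had 16 of 36 (44.4%) with day 4 above and 2 (5.56%) with day 5 above, and over the 25 at 1 FPKM or more in each pair 10 (40%) and 0. Within that list ANXA2, an annexin, had ratios of 3.004 and 0.91 and -0.37 and -0.86, and THBS1, thrombospondin, of 5.47 and 1.53 and 0.05 and 0.06. In both lists 1 line weighed heavily: without NCI-H211 the median difference went from -1.44 to -0.41 for the YAP and TEAD targets and from -0.72 to -0.20 for the mesenchymal genes, with the sign kept.

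Actin cytoskeleton genes had 15 of 22 (68.2%) with day 4 above and 0 with day 5 above, and 15 of 21 and 0 at 1 FPKM or more in each pair. VCL, vinculin of focal adhesions, had ratios of 1.81 and 0.25 on day 4 and -0.43 and -0.42 on day 5. The list's median difference was -0.67, and -0.38 without NCI-H211. Integrins, laminins and adhesion genes had 8 of 26 (30.8%) with day 4 above and 2 with day 5 above, or 6 of 22 and 2 at 1 FPKM or more in each pair, and their median difference of -0.62 became -0.14 without NCI-H211. AP-1 and immediate early factors, which report recent growth factor or stress signals, had 11 of 23 (47.8%) with day 4 above and 0 with day 5 above, or 8 of 19 and 0 at 1 FPKM or more in each pair. IER3, an early response gene, went from 19.7 to 60.7 FPKM (NCI-H211) and 153 to 245 FPKM (NCI-H1048), and on day 5 from 11.2 to 5.79 FPKM (COR-L311) and 14.7 to 10.5 FPKM (NCI-H526). ERK feedback genes had 8 of 24 with day 4 above and 1 with day 5 above, or 5 of 18 and 1 at 1 FPKM or more in each pair, and their median difference of -0.38 became -0.03 without NCI-H211. EPHA2, an ephrin receptor, had ratios of 3.96 and 1.08 and -0.43 and -0.61, and SPRY2, a feedback inhibitor of receptor kinases, of 1.26 and 0.36 and -0.96 and -0.63.

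Simple keratins and their partners had 11 of 28 (39.3%) with day 4 above and 4 (14.3%) with day 5 above. At 1 FPKM or more in each pair the counts were 10 of 27 and 4. CLDN4, a tight junction claudin, had ratios of 1.78 and 2.24 on day 4 and -0.04 and 0.50 on day 5. ELF3, an epithelial ETS factor, had 1.003 and 1.52 and -0.39 and 0.25. KRT19 and MUC1, of the same list, overlapped and were above control in every line. KRT19 had ratios of 1.73 and 2.20 on day 4 and 2.30 and 1.85 on day 5, and MUC1 of 1.77 and 0.68 and 0.92 and 1.09. Basal and stratified epithelial genes had 3 of 13 (23.1%) with day 4 above and 1 with day 5 above, where all genes had 18.9% and 19.4%, and 1 of 8 and 1 at 1 FPKM or more in each pair. KRT17, a basal keratin with close pseudogenes, went from 1.48 to 384 FPKM (NCI-H211) and 4.29 to 22.4 FPKM (NCI-H1048), and on day 5 from 4.85 to 6.54 FPKM (COR-L311) and 0.306 to 0.934 FPKM (NCI-H526).

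Ribosome biogenesis genes had the largest share of any list of at least 10 compared genes, with 22 of 30 (73.3%) with day 4 above and 0 with day 5 above. Here the distance came from the day 5 lines: the median ratio was 0.00 (NCI-H211) and 0.03 (NCI-H1048), and -0.60 (COR-L311) and -0.21 (NCI-H526). WDR43, a factor of ribosomal RNA processing, went from 63 to 71.4 FPKM (NCI-H211) and 18.9 to 21.2 FPKM (NCI-H1048), and on day 5 from 18.2 to 13.4 FPKM (COR-L311) and 24.5 to 19.2 FPKM (NCI-H526). RRS1, which acts in assembly of the large subunit, had ratios of 0.58 and 0.12 and -0.92 and -0.31, NAT10, an RNA acetyltransferase, had 0.05 and 0.28 and -0.74 and -0.28, and POLR1C, a polymerase I subunit, had 0.19 and 0.24 and -0.79 and -0.18. The sizes were small beside the genes above, and COR-L311 lay furthest down. The list's median difference was -0.40, with -0.22 without COR-L311 and -0.57 without NCI-H526.

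Every compared member of the ribosome, cholesterol and hypoxia lists was at 1 FPKM or more in each pair. Cholesterol and fatty acid synthesis genes had 17 of 33 (51.5%) with day 4 above and 0 with day 5 above, at median ratios of -0.16 (NCI-H211) and 0.07 (NCI-H1048), and -0.32 (COR-L311) and -0.52 (NCI-H526). DHCR7, the last enzyme of cholesterol synthesis, had ratios of 0.45 and 0.31 on day 4 and -0.88 and -0.64 on day 5. The list's median difference of -0.44 became -0.20 without NCI-H1048. Hypoxia and glycolysis genes had 14 of 31 (45.2%) with day 4 above and 1 with day 5 above. PKM, pyruvate kinase, had ratios of 0.82 and 0.02 and -0.71 and -0.39, and PGAM1, phosphoglycerate mutase, of 0.07 and -0.01 and -0.51 and -0.55. CA9, a carbonic anhydrase induced by hypoxia, was the member with day 5 above, at -0.29 and -0.08 and 1.5 and 0.62. NRF2 and AKR1C genes had 11 of 23 (47.8%) with day 4 above and 2 with day 5 above, or 10 of 22 and 2 at 1 FPKM or more in each pair, with TKT, transketolase, at 0.14 and 0.36 and -1.11 and -0.34.

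On the day 5 side, neuroendocrine and neurogenic factors had 13 of 22 (59.1%) with day 5 above and 1 (4.55%) with day 4 above. In 9 of the 22 all 4 columns of one pair were under 1 FPKM, among them NEUROD1, and 4 of the 13 with day 5 above were of that kind. Over the 13 members at 1 FPKM or more in each pair, 9 (69.2%) had day 5 above and 0 had day 4 above, with a median difference of 1.35. No value with a line left out is given for these 13, and some of the 9 leaned on 1 line. HES6 had ratios of -2.26 and -0.08 on day 4 and 0.57 and 0.075 on day 5, and NKX2-2 of 0 and -0.465 and 2.18 and 0.045. Over all 22, the median ratio was -0.01 (NCI-H211) and -0.10 (NCI-H1048), and 0.62 (COR-L311) and 0.00 (NCI-H526), and the median difference of 0.58 became 0.33 without COR-L311. INSM1 and NEUROD1 stood out in both day 5 lines, while PROX1, a homeobox factor, had -2.46 and -1.50 on day 4 and 0.50 and -0.69 on day 5, and ST18, a zinc finger factor, -2.36 and -1.73 and 0.70 and -0.92. In those 2 genes COR-L311 was above its control and NCI-H526 below. Neuroendocrine secretory and synaptic genes had 10 of 30 (33.3%) with day 5 above and 0 with day 4 above, or 6 of 18 and 0 at 1 FPKM or more in each pair. NCAM1, the adhesion molecule CD56, went from 57.1 to 15.4 FPKM (NCI-H211) and 45.1 to 30.9 FPKM (NCI-H1048), and on day 5 from 113 to 358 FPKM (COR-L311) and 75.8 to 91.6 FPKM (NCI-H526). CELF3, a neuronal splicing regulator, was under 0.2 FPKM on day 4 and went from 3.76 to 19.4 FPKM (COR-L311) and 12.6 to 31 FPKM (NCI-H526), and GAP43, a growth cone protein, had ratios of 0.03 and -0.08 on day 4 and 4.34 and 0.71 on day 5. Other members moved little: CHGA and SYP overlapped, with day 5 ratios of -0.57 and 0.03 and of 0.37 and -0.19, and CHGB had a gap of 0.04. The median ratio of this list was 0 (NCI-H211) and -0.03 (NCI-H1048), and 0.39 (COR-L311) and 0.01 (NCI-H526). Its median difference, 0.37, became 0.10 without COR-L311.

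Of 23 ionocyte genes, 13 passed the filter. Among the 13, 7 (53.8%) had day 5 above and 2 had day 4 above, or 5 of 8 and 0 at 1 FPKM or more in each pair. Beside FOXI1 and HEPACAM2, CEL, a lipase, had ratios of 0.15 and 0.41 and 1.19 and 1.59. ATP6V1C2 and STC2 also counted with day 5 above, but by gaps of 0.022 and 0.091, and were below control in every line. BSND counted there by a gap of 0.043. The 2 with day 4 above were TMPRSS11E, at 3.19 and 0.46 and 0.06 and 0, and RARRES2, at 0.183 and 0.225 and 0 and -0.227. Both were under 1 FPKM in all 4 day 5 columns. The Notch list, with receptors, ligands and targets, had 7 of 26 (26.9%) with day 5 above and 5 (19.2%) with day 4 above, near the 19.4% and 18.9% of all genes, so its members are given as single genes. HES4, a relative of HES1, had 0.67 and 0.22 on day 4 and -0.33 and -0.43 on day 5, and REST, a repressor of neuronal genes, had 0.04 and 0.24 and -0.29 and -0.51. MAML3, a coactivator of Notch, pointed the other way at 0.40 and 0.09 and 1.58 and 0.68. CDK inhibitors, RB and cyclin D genes had 8 of 18 (44.4%) with day 5 above and 2 (11.1%) with day 4 above. CDKN1A (p21) went from 4.25 to 7.31 FPKM (NCI-H211) and 54.5 to 59.9 FPKM (NCI-H1048), and on day 5 from 2.73 to 22.4 FPKM (COR-L311) and 74.3 to 155 FPKM (NCI-H526). CDKN2C (p18) had ratios of -0.83 and -0.29 and 0.53 and 0.45, and CCNE2, a cyclin of the G1/S transition, of -0.63 and 0.03 and 0.98 and 0.76, while CDKN2A (p16) had 0.53 and 0.47 and -0.27 and 0.07. The median difference of the list, 0.25, became 0.07 without NCI-H211.

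Cell division genes form the next lists. Mitosis genes had 4 of 35 (11.4%) with day 5 above and 2 (5.71%) with day 4 above, both under the shares over all genes, at median ratios of -0.97 (NCI-H211) and -0.22 (NCI-H1048), and -0.43 (COR-L311) and -0.45 (NCI-H526). All 4 medians were below 0, the one of NCI-H1048 least so, and the median difference of 0.12 changed sign without NCI-H211, to -0.23. DNA replication genes had 12 of 37 (32.4%) with day 5 above and 2 (5.41%) with day 4 above, and all members of both lists were at 1 FPKM or more in each pair. PRIM1, the primase subunit, had ratios of -0.78 and -0.30 and 0.29 and 0.12, and E2F2 of -0.96 and -0.24 and 0.25 and 0.33. The replication list's median difference was 0.12, with -0.004 without NCI-H211, a change of sign, and 0.002 without NCI-H526.

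**Figure D4:**
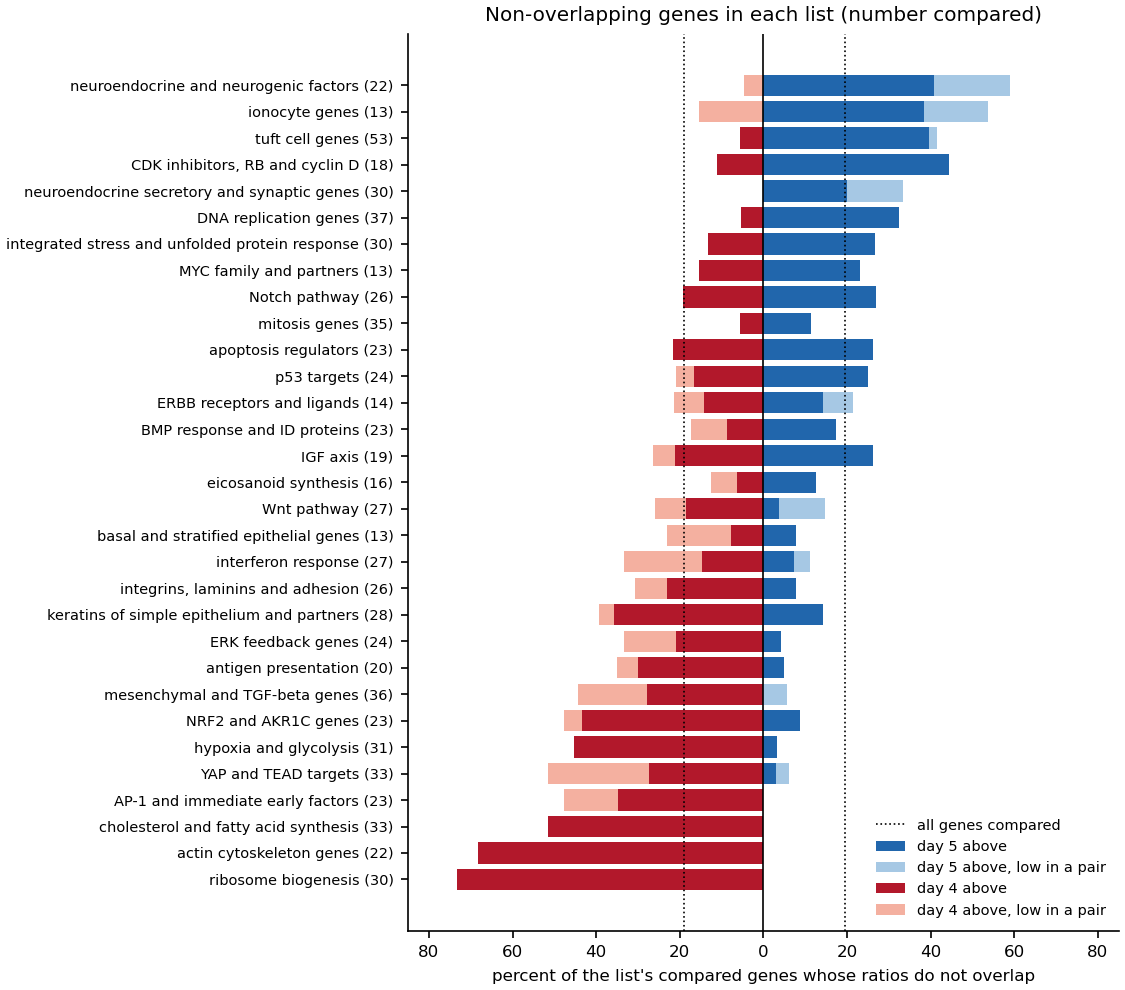
Percent of the compared genes of each list whose ratios do not overlap, with day 5 above (right) or day 4 above (left), for the lists with at least 10 compared genes, whose number is in brackets. Dotted lines mark the shares over all genes, 19.4% and 18.9%, pale ends are members under 1 FPKM in all 4 columns of one pair, and ribosome biogenesis and actin cytoskeleton genes reach furthest on the day 4 side.

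The remaining lists are given by their counts, to be read beside 18.9% and 19.4% of all genes. Antigen presentation had 7 of 20 with day 4 above and 1 with day 5 above, and the interferon response had 9 of 27 and 3, or 4 of 18 and 2 at 1 FPKM or more in each pair, led by IFITM genes whose near-identical copies can share reads. The Wnt pathway had 7 of 27 and 4, the IGF axis 5 of 19 and 5, and BMP response and ID proteins 4 of 23 and 4, again with day 4 above given first. At 1 FPKM or more in each pair, the Wnt counts were 5 of 19 and 1. Among BMP genes, BMP2, a ligand, went from 27.9 to 4.93 FPKM (NCI-H211) and 170 to 57.7 FPKM (NCI-H1048), and on day 5 from 0.082 to 0.227 FPKM (COR-L311) and 1.21 to 1.62 FPKM (NCI-H526). ID3, an inhibitor of bHLH factors, was above control in every line at 0.42 and 0.47 and 1.90 and 1.13. Eicosanoid synthesis had 2 of 16 and 2, p53 targets 5 of 24 and 6, apoptosis regulators 5 of 23 and 6, and ERBB receptors and ligands 3 of 14 and 3. At 1 FPKM or more in each pair, eicosanoid synthesis had 1 of 9 and 2, and the ERBB list 2 of 10 and 2. BCL2, an inhibitor of apoptosis, had ratios of -2.09 and -0.55 on day 4 and 0.44 and -0.08 on day 5. HBEGF, an EGF receptor ligand, had 4.55 and -0.07 and -1.54 and -1.46, so NCI-H1048 was near its control. Integrated stress and unfolded protein response genes had 4 of 30 and 8, and the MYC family 2 of 13 and 3.

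Markers of other cell types were mostly too low to compare. Of the fibroblast markers 5 of 14 passed the filter, of the endothelial 1 of 12, of the leukocyte 4 of 15 and of the airway secretory, ciliated and alveolar markers 7 of 17. Their non-overlapping members with day 4 and day 5 above numbered 3 and 0, 0 and 0, 1 and 1, and 0 and 3. The fibroblast members were THY1, COL6A1 and COL6A2, with gaps of at most 0.10. In the airway list FOXJ1, the ciliated cell factor, had ratios of -0.77 and 0.59 on day 4 and 0.90 and 1.27 on day 5.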

How the data were processed

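RNA-seq of 4 small cell lung cancer lines with guides against POU2F3 or a control guide, and of their parental cells, was used. The authors deposited FPKM values per gene, with 1 sgPOU2F3 column a line, taken to hold both guides since its name gives no guide number. The submitters' processing notes name TopHat2, Cufflinks, Cuffdiff and the build hg19. Versions are not given in the sources used here. The kit does not mark strand, so reads of overlapping genes cannot be told apart. Parental values come from another table, normalized apart, and 10 further parental columns were not used.

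A pseudocount of 1 was added, log2 taken and sgNeg subtracted within each line. Fold changes on this scale understate those of low genes. The day pairs were compared with limma 3.58.1 in R 4.3.3 (eBayes with a trend, 2 residual degrees of freedom, 2-sided, Benjamini-Hochberg over all genes), after tests on simulated data. With 1 such column, the guides could not be averaged or blocked. Fragments were estimated from the smallest FPKM steps of genes with 1 transcript. Alternatives covered pseudocounts, filters, scaling, the variance trend and leaving out each line.

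Named genes were POU2F3 and the 5 markers, the 12 largest gaps in each direction and up to 8 genes in each direction with opposite ratios of 0.5 or more (FPKM of 5 or more in at least 1 column), and up to 4 members of each of 36 lists. Some genes that this rule names are not reported here. The members and lists were chosen with earlier results of these data known. Promoter sequences are RefSeq's (GRCh38.p14), matched by symbol; hg19 coordinates were not used.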

Additional observations from a re-analysis of the deposited data

Results flagged for a closer look

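In 9 genes both lines of one pair had a ratio of 0.5 or more and both of the other a ratio of -0.5 or less. limma called none of them, with adjusted p between 0.347 and 0.817, so that the pairs are not shown to differ. The difference, day 5 minus day 4 on the log2 scale, was 3.90 for FOXI1, 2.67 for INSM1, 2.48 for HDAC9, 1.73 for KLHL14, 1.46 for SAMD9 and 1.25 for PHACTR1. It was -3.07 for SYT12, -2.29 for TPBG and -2.22 for HEG1. Without NCI-H211 it was -1.91 for SYT12 and -1.30 for HEG1. Those 9 compare with 24 genes at 0.5 or more in all 4 lines and 42 at -0.5 or less in all 4.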

How the results depend on the processing

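No paired analysis was possible because the deposited tables have 1 column for the guides of a line, so the guide numbers that the groups share have no values of their own, and the planned replicate block was not run. Non-overlapping ratios made up 36% to 40.6% of the genes tested under every change of pseudocount, filter, scaling or normalization, and day 5 was above in 48.4% to 51.4% of them. The genes with a gap of 1 or more depended on the scale: 217 with a pseudocount of 0.1, 40 with a pseudocount of 5 and 631 with ratios divided by the SD of their line, against 105. They numbered 65 among genes with an FPKM of 1 or more in each pair, a choice added after seeing the data. The direction also turned: wide gaps with day 5 and day 4 above numbered 60 and 45, but 18 and 22 with a pseudocount of 5 and 48 and 58 with quantile normalization. With division by the SD the gap is in SD units. Genes past the adjusted p numbered 1 with a pseudocount of 5 and 1 with quantile normalization, and 0 under the other scalings and filters. The gene was SCGB1D2 in both, which is at 0 in all day 4 columns. It was compared only through the day 5 lines, so its pass is not a test of the day difference. Leaving out a line sets 1 line against 2, which loosens non-overlap by construction: the non-overlapping genes numbered 8463 to 10000, those with a gap of 1 or more 222 to 948, those of sgNeg against parental 8305 to 10081, and genes past the adjusted p 0 to 48, the 48 without NCI-H1048. Among the named genes THY1 changed sign, to 0.047 with a pseudocount of 0.1, from a difference of -0.32. List medians moved beyond the spread between lines in 94 of 467 values. With 2 lines a day and no values per guide, precision is limited by the number of lines and by levels near 0 FPKM.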
